A study of Mus musculus with 4 samples.

Results

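Ephrins and Eph receptors form a signalling system of membrane-bound ligands and receptor tyrosine kinases, and 10 of its genes were described here in isolated mouse cardiomyocytes with and without overexpression of RBFOX2, an RNA-binding regulator of splicing. The genes were chosen by name, with the values of this same comparison already known, from 48432 gene rows in the authors' table: the ephrin-A ligands Efna1 and Efna5, the ephrin-B ligands Efnb1, Efnb2 and Efnb3, the receptor Epha4, and the receptors Ephb1, Ephb2, Ephb3 and Ephb4. They are 10 of the 22 mouse ephrin and Eph genes, all of which were in the table. Their differences between the groups are therefore a description, given with no test.

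The study held 4 libraries of polyadenylated RNA from cardiomyocytes freed by Langendorff perfusion, in 2 groups of 2. Controls have the genotype label MHC and the other mice the genotype label RbFox2, here called MHC control and Rbfox2 OE (overexpression). Both groups share the strain C57BL x FVB and a doxycycline diet of 3 days, so the controls received the drug as well. The series concerns conduction defects in myotonic dystrophy and a non-muscle isoform of RBFOX2; what MHC stands for, the promoter behind the transgene, the age of the animals and how many stand behind a library are not given in the sources used here.

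For each gene the table gave 1 FPKM value per group (fragments divided by transcript length and by the depth of the library, so that genes can be set beside each other), a lower and an upper bound and a status. No value per library was in the table, so the spread between the libraries of a group is not known and no p-value was computed. Each level below is followed by the authors' bounds in parentheses, whose confidence level the table does not state. Rbfox2 itself stood at 14.7 FPKM in the control (10.4 to 19.0) and at 293 FPKM in Rbfox2 OE (214 to 373), as the group labels say. Cardiomyocyte transcripts were abundant in both groups, with Myl2 at 24688 and 18007 FPKM and Tnnt2 at 10609 and 6917 FPKM in control and Rbfox2 OE, while Myh6 and Mb were listed at 0 with the status HIDATA, which Cuffdiff gives where the fragments of a locus are too many to process. The 10 ephrin and Eph genes all had the status OK.

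Ephrins come in 2 classes. Ephrin-A proteins are held to the membrane by a lipid anchor and mainly bind EphA receptors. Ephrin-B proteins cross the membrane and mainly bind EphB receptors, with EphA4 able to bind both classes. A receptor that meets a ligand on a neighbouring cell signals forward through its kinase, the ephrin-B ligand signals in reverse through its cytoplasmic tail, and the outcome is often repulsion or a boundary between cells. In the vasculature ephrin-B2 marks arterial and EphB4 venous endothelium, and ephrin-B1 has been described at the lateral membrane of cardiomyocytes.

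Efnb3, which encodes the transmembrane ligand ephrin-B3, showed the largest difference of the 10 genes. It stood at 47.2 FPKM in the control (33.5 to 60.8) and at 3.52 FPKM in Rbfox2 OE (2.27 to 4.76), a level 13.4-fold lower. The bounds were far apart: the nearest pair gave a 7.03-fold and the farthest pair a 26.8-fold difference. Between the groups Efnb3 went from the highest of the 10 genes to the sixth.

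After 1 FPKM was added to each value, which shrinks differences between low values, the log2 ratio (Rbfox2 OE to control) was -3.41 for Efnb3, and the bounds gave -4.24 to -2.58. Genes were compared across the transcriptome where the mean of the groups was at least 1 FPKM, which left 11697 genes with a median log2 ratio of -0.06. Genes are counted below as at least 2-fold apart where this log2 ratio is 1 or more in size, while the folds given for single genes are of the plain FPKM values. Of the 11697 genes, 11 had a lower log2 ratio than Efnb3. The status was not part of the filter, so genes listed at 0 as HIDATA in 1 group only could be kept in these counts and ranks. By level, Efnb3 ranked 1506 in the control and 8407 in Rbfox2 OE among the same genes.

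**Figure D1:**
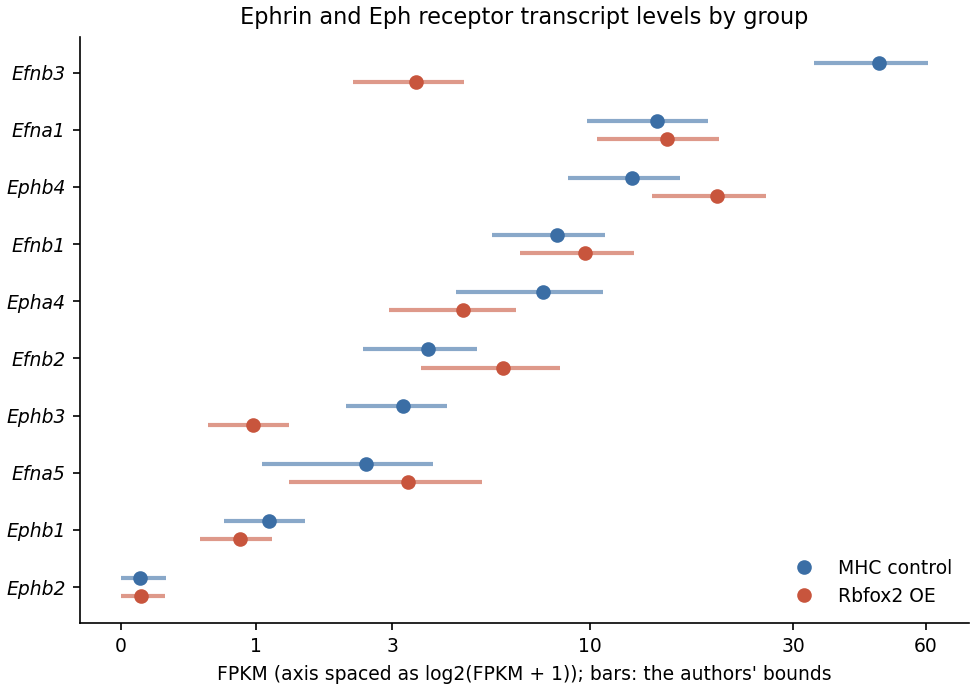
FPKM of the 10 ephrin and Eph genes in MHC control (blue) and Rbfox2 OE (red), on an axis spaced as log2(FPKM + 1); points are the authors' pooled values and bars their bounds. The bars of Efnb3 and Ephb3 are apart and those of the other 8 genes overlap.

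Efnb3 (ENSMUSG00000003934) lies on GRCm38 chromosome 11 from 69554092 to 69560205, minus strand, overlaps no other annotated gene and has 1 annotated transcript of 3183 bases. None of the 50-base sequences of that transcript was found in the transcripts of another gene, a share of 0%. The depth behind its value was approximated from FPKM times transcript length in kilobases, over genes with 1 annotated transcript of 3000 to 3300 bases. The lowest values were split at their largest relative gap, which always gives 2 steps. Their medians were 0.0130 and 0.0144 in the control and 0.0122 and 0.0149 in Rbfox2 OE. The second step was less tight, from 0.0144 to 0.0153 in the control and from 0.0144 to 0.0151 in Rbfox2 OE. Further genes sat at the sum of those steps, 2 in each group within 2%, while 1 control gene and 4 in Rbfox2 OE sat at 2 times the first step, and 0 and 2 at 2 times the second, so the reading rests on few genes. Read as 1 fragment in the one or the other pooled library, the steps put Efnb3 at between 10404 and 11584 fragments in the control and between 750 and 918 in Rbfox2 OE.

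The protein-coding genes on either side of Efnb3 were low in both groups. Wrap53, which lies 1552 bases away on the same strand, stood at 3.05 FPKM in the control (1.70 to 4.40) and 2.03 FPKM in Rbfox2 OE (1.10 to 2.96), with overlapping bounds. Dnah2, 4981 bases away on the other side, was near 0 in both groups, at 0.0548 and 0.0550 FPKM.

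Outside the family, the 3 protein-coding genes whose levels in the 2 groups lay nearest to those of Efnb3 were Cacnb2, Corin and Ttll1, at distances of 0.31, 0.40 and 0.52 on the log2(FPKM + 1) scale. Cacnb2, a subunit of voltage-gated calcium channels, stood at 43.4 FPKM in the control (29.3 to 57.4) and 4.49 FPKM in Rbfox2 OE (1.87 to 7.11). Corin, the protease that processes the atrial natriuretic peptide precursor, stood at 58.7 FPKM (41.9 to 75.5) and 4.41 FPKM (2.95 to 5.86). Ttll1, of the tubulin tyrosine ligase-like family, stood at 51.0 FPKM (35.8 to 66.2) and 5.43 FPKM (3.44 to 7.41). The likeness rests on 2 values per gene.

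**Figure D2:**
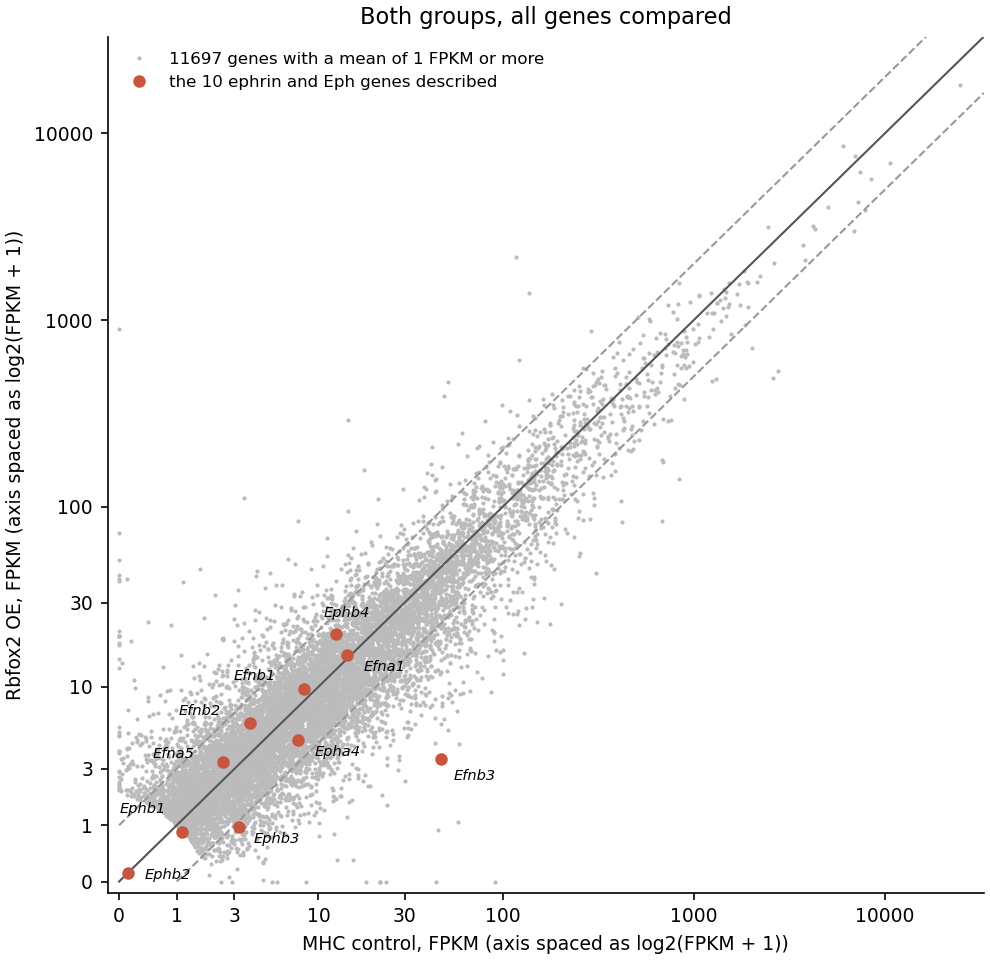
FPKM in MHC control (horizontal) against Rbfox2 OE (vertical) for the 11697 genes compared (grey) and the 10 ephrin and Eph genes (red), both axes spaced as log2(FPKM + 1); the solid line marks equal values and the dashed lines a log2 ratio of 1 in either direction. Efnb3 lies far below the lower dashed line and Ephb3 just below it, and the other 8 genes lie between the lines.

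The other ephrin-B ligands were slightly higher in Rbfox2 OE, within their bounds. Efnb1 (chromosome X, 99136130 to 99148991, plus strand) stood at 8.28 FPKM in the control (5.67 to 10.9) and 9.74 FPKM in Rbfox2 OE (6.70 to 12.8), a log2 ratio of 0.21. Efnb2 (chromosome 8, 8617434 to 8661242, minus strand) stood at 3.80 FPKM (2.44 to 5.17) and 6.03 FPKM (3.63 to 8.43), a log2 ratio of 0.55. Efnb3 thus went from first to last within the class, while Efnb1 stayed above Efnb2. Efnb3 was 5.70-fold above Efnb1 and 12.4-fold above Efnb2 in the control, whereas in Rbfox2 OE Efnb1 was 2.77-fold and Efnb2 1.72-fold above Efnb3, the latter with overlapping bounds.

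The 3 ephrin-B genes encode proteins with a closely related tail that ends in a binding motif for PDZ-domain proteins, through which the reverse signal is relayed. The last 30 coding bases before the stop codon are shown because they encode that end of the tail; they come from the GENCODE M21 transcripts on GRCm38, with bases identical in all 3 genes in capitals.
Efnb1, chrX:99147495-99147524, plus strand: CAGAGcCCggCgAACATcTAcTACAAGGTt
Efnb2, chr8:8620591-8620620, minus strand: CAGAGtCCtgCcAACATtTAcTACAAGGTc
Efnb3, chr11:69555863-69555892, minus strand: CAGAGcCCtcCgAACATcTAtTACAAGGTa
Of the 30 bases, 23 were identical in all 3 genes, 26 between Efnb1 and Efnb3 and 24 between Efnb2 and Efnb3. Over whole transcripts, none of the 50-base sequences of Efnb1 or Efnb2 was found in transcripts of another gene either.

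The ephrin-A ligands had overlapping bounds in both cases. Efna1 (chromosome 3, 89271733 to 89281142, minus strand), a ligand of EphA2, stood at 14.5 FPKM in the control (9.84 to 19.1) and 15.3 FPKM in Rbfox2 OE (10.4 to 20.2), a log2 ratio of 0.08. Efna5 (chromosome 17, 62604184 to 62881317, minus strand) stood at 2.49 FPKM (1.05 to 3.93) and 3.35 FPKM (1.37 to 5.33), a log2 ratio of 0.32. The bounds of Efna5 reached 57.8% and 59.2% of its value to either side, the widest among the 8 genes that passed the filter on the mean.

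Summed over the class, the ephrin-B genes made up 59.2 FPKM in control and 19.3 FPKM in Rbfox2 OE, and the share of Efnb3 in that sum was 79.6% and 18.2%. The 5 ephrin-A genes summed to 17.8 and 19.3 FPKM, so that both classes stood at the same summed level in Rbfox2 OE. All 8 ephrins together made up 77.0 FPKM in control and 38.6 FPKM in Rbfox2 OE. Without Efnb3 these sums were 29.9 and 35.1 FPKM, so the lower total of the ligands lay in this single gene.

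Among the receptors the gene that differed most was Ephb3 (ENSMUSG00000005958, chromosome 16, 21204755 to 21223305, plus strand), an EphB receptor kinase. It stood at 3.23 FPKM in the control (2.16 to 4.30) and at 0.962 FPKM in Rbfox2 OE (0.560 to 1.36), a level 3.36-fold lower with separate bounds, the nearest pair of which differed 1.58-fold. Its log2 ratio was -1.11, and the bounds gave -1.77 to -0.42. Ephb3 passed the filter on the mean through its control level alone. A pseudocount of 5 FPKM moved it to -0.47, under the 2-fold threshold. Vps8, the next protein-coding gene in the direction of transcription, 199812 bases away, stood at 11.6 FPKM (4.15 to 19.0) and 3.58 FPKM (0.805 to 6.35), with overlapping bounds.

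Ephb4, the receptor for ephrin-B2 that is typical of venous endothelium, had the highest value of the receptors in both groups. In the control its bounds overlapped those of Epha4 (4.54 to 10.7). Ephb4 (chromosome 5, 137350109 to 137378669, plus strand) stood at 12.6 FPKM in the control (8.81 to 16.4) and 20.0 FPKM in Rbfox2 OE (14.1 to 26.0), a log2 ratio of 0.63 with overlapping bounds. Its ratio, 1.59, was the same to 3 digits as that of its ligand Efnb2. Efnb2 thus stood at 0.302 of the level of Ephb4 in control, and at 0.301 in Rbfox2 OE. By their bounds, the log2 ratio could lie from -0.20 to 1.46 for Ephb4 and from -0.41 to 1.45 for Efnb2. Ranges this wide give the likeness no weight, and a link between these genes was not tested. Ephb4 overlaps Zan, annotated on the opposite strand, which was listed at 0 in both groups.

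Epha4, which binds ligands of both classes, was the one EphA receptor among the 10 genes. Epha4 (chromosome 1, 77367185 to 77515088, minus strand) stood at 7.63 FPKM in the control (4.54 to 10.7) and 4.74 FPKM in Rbfox2 OE (2.94 to 6.54), a log2 ratio of -0.59 with overlapping bounds. The remaining EphB receptors were low. Ephb1 (chromosome 9, 101922128 to 102354693, minus strand) stood at 1.13 FPKM (0.698 to 1.56) and 0.836 FPKM (0.501 to 1.17), and Ephb2 (chromosome 4, 136647539 to 136835988, minus strand) at 0.107 and 0.112 FPKM with lower bounds of 0. Ephb1 and Ephb2 had a mean under 1 FPKM and were not among the genes compared across the transcriptome.

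The summed level of the 14 Eph receptors was 29.3 FPKM in control and 31.8 FPKM in Rbfox2 OE, so the sum of the receptors moved little while the shares in it differed. Ephb4 took 43.0% of the sum in the control and 63.0% in Rbfox2 OE, Epha4 26.1% and 14.9%, and Ephb3 11.0% and 3.03%. The shares have no bounds, and the levels of Ephb4 and Epha4 had overlapping bounds between the groups. Only Ephb3, a small part of the sum, had separate bounds. The level of Ephb4 was 3.90-fold that of Ephb3 in the control and 20.8-fold in Rbfox2 OE. Summed ligands over summed receptors came to 2.63 in the control and 1.21 in Rbfox2 OE.

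**Figure D3:**
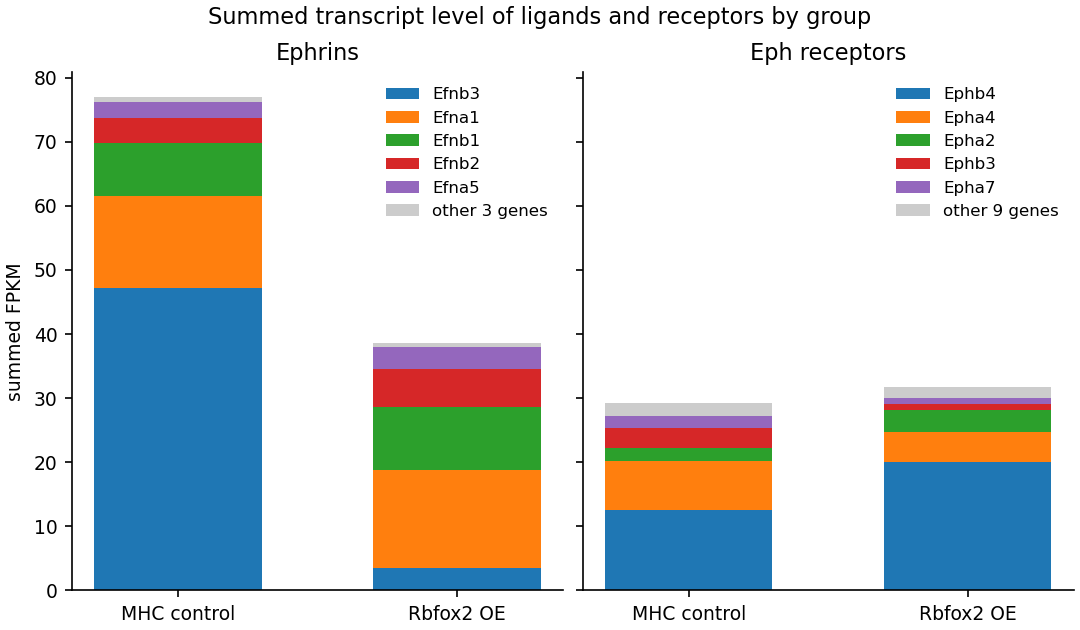
Summed FPKM (vertical, from 0) of the 8 ephrins and the 14 Eph receptors in each group, stacked by gene with the less abundant genes in grey. The Efnb3 block shrinks from 47.2 to 3.52 FPKM while the receptor bars stay near 30 FPKM with a larger Ephb4 block.

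Among the 10 genes, 6 overlap no other annotated gene, and the values of the other 4 are uncertain to the extent that fragments of a neighbour were counted: Efnb2 overlaps 3 genes, Epha4 a microRNA gene, Ephb1 9 genes and Ephb4 the gene Zan. Whether the authors' counting used strand is not given in the sources used here. Set in order, the 10 genes had neighbours that mostly did not differ beyond their bounds. In the control the order was Efnb3, Efna1, Ephb4, Efnb1, Epha4, Efnb2, Ephb3, Efna5, Ephb1 and Ephb2, and only Efnb3 from Efna1 and Ephb1 from Ephb2 had separate bounds among neighbours. In Rbfox2 OE it was Ephb4, Efna1, Efnb1, Efnb2, Epha4, Efnb3, Efna5, Ephb3, Ephb1 and Ephb2, with separate bounds between Efna5 and Ephb3 and between Ephb1 and Ephb2.

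Of the 10 genes, 2 (Efnb3 and Ephb3) were at least 2-fold lower in Rbfox2 OE, with separate bounds, and 0 were 2-fold higher or higher with separate bounds. Across the 11697 genes compared, 10.02% were at least 2-fold lower and 6.97% at least 2-fold higher, and by separate bounds 9.33% were lower and 6.67% higher. Since the genes were chosen on this contrast, nothing is read from these shares. The median log2 ratio over all 10 genes was 0.04. It was 0.14 over the 8 with a mean of at least 1 FPKM, the filter behind those shares, with Efnb3 and Ephb3 among the 8. The balance of higher and lower genes across the transcriptome rested on the scaling: 59.0% of the 2-fold genes were lower as deposited, and 45.9% after rescaling without mitochondrial genes and the 10 most abundant genes, which shifted Rbfox2 OE by 0.16 on the log2 scale. Each of the 10 genes kept its direction under both scalings, although the rescaling raised their log2 ratios, so only those below 0 could have reversed.

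The 12 ephrin and Eph genes outside the 10 were mostly near 0. Epha2, the main receptor for ephrin-A1, stood at 1.91 FPKM in the control (1.19 to 2.64) and 3.37 FPKM in Rbfox2 OE (2.19 to 4.54), a log2 ratio of 0.58. Epha7 stood at 1.85 FPKM (0.373 to 3.33) and 0.933 FPKM (0.167 to 1.70), a log2 ratio of -0.56. The bounds overlapped for both genes. The other 10, which include Efna2 and Ephb6, lay between 0 and 0.774 FPKM in either group, and none of the 12 had separate bounds.

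**Figure D4:**
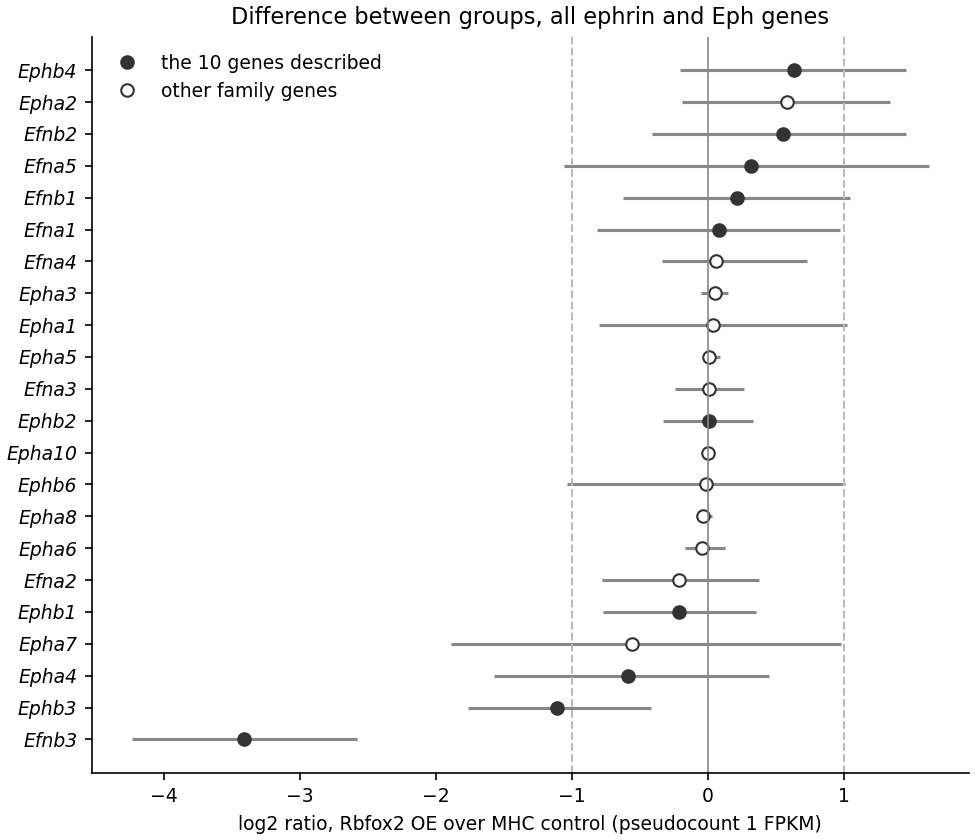
Log2 ratio (Rbfox2 OE to MHC control, pseudocount 1 FPKM) for all 22 ephrin and Eph genes (filled points, the 10 genes described; open points, the other 12); lines span the ratios that the authors' bounds give, and dashed lines mark a log2 ratio of 1 in size. Efnb3 at -3.41 and Ephb3 at -1.11 are the genes whose lines do not reach 0 and whose points pass the threshold.

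The partners of the pathway were compared from a list written for its known steps, 42 genes of which 39 had a mean above the filter. Of these 39, 3 were at least 2-fold lower and 0 at least 2-fold higher, beside 10.02% lower and 6.97% higher across all genes compared, and the median log2 ratio was -0.01. After the rescaling, 1 partner was lower and 1 higher with a median of 0.11, and with a pseudocount of 0.1 FPKM 3 were lower and 1 higher. Anks1, an adaptor that binds Eph receptors, stood at 21.3 FPKM in the control (14.9 to 27.8) and 6.44 FPKM in Rbfox2 OE (4.41 to 8.48), a log2 ratio of -1.59, the one partner past the fold with separate bounds. The other 2, named after their values were seen, were Ptpn11, the phosphatase SHP2, at 97.5 FPKM (50.6 to 144) and 44.4 FPKM (19.6 to 69.3), and Itsn1, an exchange factor for CDC42, at 25.4 FPKM (0 to 60.4) and 11.7 FPKM (0 to 35.9), both with overlapping bounds.

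By separate bounds, 3 of the 39 partners were lower, Anks1 among them, and 1 was higher. The higher one was the receptor phosphatase Ptprj, also named after its values were seen, at 1.02 FPKM in control (0.620 to 1.41) and 2.84 FPKM in Rbfox2 OE (1.86 to 3.81), a log2 ratio of 0.93 that lies under the threshold because of the added 1 FPKM. By step, the median log2 ratio was -0.01 for 26 genes of forward signalling, -0.11 for 6 of reverse signalling and 0.25 for 7 of cleavage and turnover. Adam10, a protease that cleaves ephrins, stood at 9.93 and 12.0 FPKM with overlapping bounds.

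RBFOX proteins bind the RNA sequence UGCAUG, and the mature transcripts were searched for its DNA letters, TGCATG, on the sense strand, in the transcript with the longest coding part of each gene. The motif was found in 6 of the 10 genes and in 50.3% of 21699 protein-coding genes. It was in Epha4, Ephb1, Ephb2, Ephb3, Ephb4 and Efna5, once in each, and not in this transcript of Efna1, Efnb1, Efnb2 or Efnb3. Among transcripts within 10% of the length of the Efnb3 transcript, 57.2% held it, and 68.2% of those as long as the Ephb3 transcript. Introns, where RBFOX proteins mostly act, were not searched. The windows are shown because they are the stretches in these messages that match the motif of the overexpressed protein; they are from GENCODE M21 on GRCm38, 26 bases each, with the motif in capitals.
Ephb3, coding, chr16:21214726-21214751, plus strand: ccaaggtgccTGCATGtcactcatct
Ephb4, coding, chr5:137357670-137357695, plus strand: ccaaggagccTGCATGgctctgctct
Ephb2, coding, chr4:136770992-136771017, minus strand: cataggtcgcTGCATGtgcaaggcgg
Epha4, coding, chr1:77373743-77373768, minus strand: atgcagcagaTGCATGgcaggatggt
Ephb1, 3′ UTR, chr9:101922903-101922928, minus strand: tgaccactacTGCATGgggatccaac
Efna5, 3′ UTR, chr17:62604972-62604997, minus strand: aagataatacTGCATGtactacagtc
The matches in Ephb3, Ephb4 and Ephb2 lie 570, 549 and 759 bases after the start of the coding part, in the same reading frame. A match is a description of letters, and binding was not measured here.

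Markers of other heart cells differed between the groups, and in bulk RNA a change in the number of cells of a type cannot be told apart from a change in RNA per cell. The 10 endothelial markers summed to 289 FPKM in control and 507 FPKM in Rbfox2 OE, with log2 ratios from 0.03 to 1.30 and a median of 0.71. Cdh5 stood at 47.5 and 88.0 FPKM and Pecam1 at 43.7 and 88.0 FPKM. The log2 ratios of 5 of the 10 genes, Efna1, Efna5, Efnb1, Efnb2 and Ephb4, lay within that range. This was not particular to endothelium. The same count was 4 for the arterial, 6 for the venous and 9 for the smooth muscle and pericyte markers. It was 2 for the fibroblast, 2 for the neuronal and glial and 0 for the macrophage and leukocyte markers. The share of all genes compared that lay within the endothelial range was not counted, so the count of 5 ties no gene to endothelium. By the log2 ratio with 1 FPKM added, 2 of 10 endothelial markers were at least 2-fold higher (Pecam1, at 0.99, was just under), as were 2 of 8 arterial markers (sum 38.8 and 65.2 FPKM) and 3 of 5 venous markers (sum 28.0 and 56.5 FPKM). Among these Nrp1 stood at 16.5 and 20.3 FPKM, Sox17 at 5.03 and 14.9 FPKM, Vwf at 11.2 and 28.4 FPKM and Nrp2 at 7.80 and 13.6 FPKM. None of these markers was at 0, and their part in the values of these 5 genes was not tested.

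Fibroblast and leukocyte markers were higher by more. The 9 fibroblast markers summed to 231 and 545 FPKM, 7 of 9 at least 2-fold higher, with Dcn at 147 and 301 FPKM and Col3a1 at 16.2 and 74.2 FPKM. The 8 macrophage and leukocyte markers summed to 60.1 and 248 FPKM, 7 of 8 at least 2-fold higher, with Lyz2 at 41.3 and 170 FPKM and Cd14 at 6.90 and 27.3 FPKM. Of 8 smooth muscle and pericyte markers (sum 162 and 205 FPKM), 1 was 2-fold higher and 1, Abcc9, which cardiomyocytes also express, 2-fold lower; Rgs5 stood at 71.9 and 127 FPKM and Abcc9 at 58.5 and 16.2 FPKM. Neuronal and glial markers summed to 10.9 and 15.6 FPKM, most of it from Uchl1 at 7.99 and 10.4 FPKM, and Mbp, the second by the mean of the groups, stood at 0.687 and 1.72 FPKM.

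Cardiomyocyte markers mostly lay on the other side. Of 10 listed, 8 had an estimate, 7 with a log2 ratio below 0 and 1 above 0. Of the 8, 4 were at least 2-fold lower in Rbfox2 OE. The log2 ratios ran from -2.42 to 0.60 with a median of -0.94, and the list summed to 49613 FPKM in control and 30543 FPKM in Rbfox2 OE. The log2 ratios of 8 of the 10 genes lay within this wide range, with Efnb3 (-3.41) below it and Ephb4 (0.63) just above it. The median of the 11697 genes compared, -0.06, lay within it too. The share of those genes within the range was not counted, so the count of 8 ties no gene to cardiomyocytes. The part of cell composition in the values of the 10 genes was not tested.

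**Figure D5:**
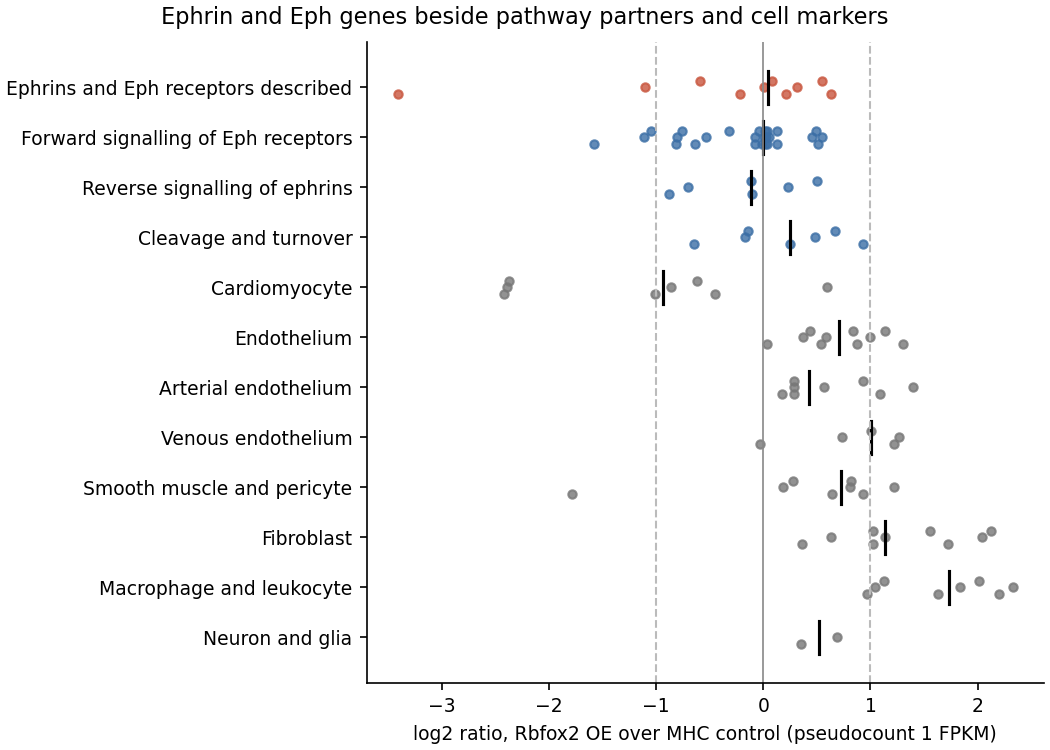
Log2 ratio (Rbfox2 OE to MHC control, pseudocount 1 FPKM) for the 10 ephrin and Eph genes (red), pathway partners (blue) and cell type markers (grey), one point per gene and a black bar at each median; partners and markers are those that passed the filter on the mean, and dashed lines mark a log2 ratio of 1 in size. The Efnb3 point at -3.41 lies below every other gene drawn, and the endothelial median is 0.71.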

How the data were processed

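Polyadenylated RNA of 4 libraries, 2 per group, was sequenced from isolated cardiomyocytes. The authors deposited 1 gene-level table of FPKM values with bounds and a status per group, written by Cuffdiff per the file headers. The submitters' processing notes name Cuffdiff 2.2.1, STAR 2.4.2a and the build GRCm38; the annotation, the normalization mode and the use of strand are not given in the sources used here.

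Log2 ratios (Rbfox2 OE to MHC control) were taken after adding 1 FPKM to each deposited value (Python 3.11.15, pandas 2.3.3). Rows sharing a name (110 names) were summed, and genes whose mean reached 1 FPKM were compared, whatever their status. Calls were a 2-fold difference or separate bounds. The table holds 1 value per group, so no test was run. The calculations were tested on simulated data. Coordinates and transcripts are from GENCODE M21, matched by gene identifier without version (tolerance for transcripts of like length 10%).

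The members and lists were chosen with earlier results of these data known. Named were all 10 members, other family genes past that filter or with separate bounds, partners past both calls (at most 3 in each direction), 2 markers of each list by mean level, and the 3 genes nearest to Efnb3. A few partners, Adam10, Vps8, Wrap53 and Dnah2 were named outside this rule, after their values were seen. Alternatives covered the pseudocount, scaling, threshold, bounds and filter. Some values of single partners are not reported here.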

Additional observations from a re-analysis of the deposited data

How the results depend on the processing

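No paired analysis was possible because each group has a single pooled value in the deposited table, and for the same reason no library could be left out; the spread between libraries is unknown. The log2 ratios of the 10 genes stayed within the range their bounds give in 40 of 40 values over 4 alternatives. For centring and rescaling this was nearly fixed in advance, since their shifts are small beside that range. Efnb3 ranged from -3.71 to -2.61 and Ephb3 from -1.65 to -0.47. Directions were kept too, but that was mostly fixed in advance. Another pseudocount cannot reverse a log2 ratio. Centring on the median gene and rescaling raised the log2 ratios, so only genes below 0 could have reversed. With a pseudocount of 5 FPKM, 1 of the 10 genes, 1 of the family and 863 of all genes were at least 2-fold apart, in place of 2, 2 and 1987 at the pseudocount used. A 1.5-fold threshold gave 4, 4, 12 partners and 4520 genes, and a 4-fold threshold 1, 1, 0 partners and 290 genes. A minimum mean of 5 FPKM left 5 family genes, of which 1 was called. Separate bounds together with the 2-fold threshold gave 1 partner in place of 3. The number of fragments behind a value limits Ephb2 and the other family genes near 0 most.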
